A study of Rattus norvegicus with 48 samples.

Results

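The genes of fatty acid oxidation and ketogenesis were described in rat liver after ischemia and reperfusion. The set lists 32 genes, chosen as enzymes, carriers and a regulator of the pathway, and 30 of them had a probe set that carries their symbol alone, out of 14506 genes measured in this way. Decr2 and Acaa1a lie on probe sets shared with a second gene and were not used. Of the 30 genes, 20 encode mitochondrial proteins, 3 peroxisomal proteins (Crot, Ehhadh and Hsd17b4), 2 proteins of both compartments (Crat and Eci2), 4 the acyl-CoA synthetases Acsl1, Acsl3, Acsl4 and Acsl5, and 1 the nuclear receptor Ppara.

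Liver fatty acid oxidation starts when acyl-CoA synthetases couple fatty acids to coenzyme A. The carnitine shuttle carries the acyl group into the mitochondrion, where each turn of the beta-oxidation spiral removes an acetyl unit through a dehydrogenase, a hydratase, a second dehydrogenase and a thiolase. Peroxisomes shorten very long and branched chains with their own enzymes, and liver mitochondria turn surplus acetyl-CoA into ketone bodies, which the liver exports during fasting. Ppara is activated by fatty acids and drives many of these genes in liver.

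Right-lobe biopsies of 48 anaesthetized male Wistar rats of 300 to 350 g, fed freely, were profiled on 1 Affymetrix array each. The Sham group (n = 8) had a laparotomy and no liver ischemia. The IRI group (n = 10) had its whole liver made ischemic for 30 min and reperfused for 30 min. The same insult followed 10 min of ischemia and 10 min of reperfusion in the preconditioned group (IPC, n = 10). In the postconditioned group (IPO, n = 10) the 30 min of ischemia was followed at once by 3 cycles of 30 sec reperfusion and 30 sec ischemia. Its reperfusion time is also given as 30 min. The combined group (IPC+IPO, n = 10) had both interventions. All values are deposited log2 expression values, differences between groups are log2 differences of group means, and a gene was called higher or lower where the limma adjusted p over the 14506 genes was under 0.05. Genes that passed are said to have risen or fallen. With 1 biopsy per rat after short reperfusion, the data hold no time course.

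The hepatocyte genes Alb, Ttr, Apoa1 and Tf lay between 11.94 and 13.39 in all 48 arrays, so the labelled tissue holds its defining transcripts. Arrays differed in how far their genes lie from the array mean. This dispersion, taken as the standard deviation across genes and named array spread, averaged 1.91 ± 0.07 (SD) in IPO, 1.86 ± 0.15 in IPC+IPO, 1.85 ± 0.08 in IPC, 1.77 ± 0.11 in IRI and 1.72 ± 0.13 in Sham. The 14 arrays of lowest spread were 6 Sham, 4 IRI, 1 IPC, 1 IPO and 2 IPC+IPO arrays. The array of IRI animal 7 stood apart, with a spread of 1.54 and a mean correlation of 0.888 with the other arrays. The array of IPC+IPO animal 38 had the lowest spread, 1.498, and a mean correlation of 0.933. Results that rest on these arrays are given with and without them.

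Hadha and Hadhb encode the alpha and beta subunits of the mitochondrial trifunctional protein, which takes long acyl chains through the last steps of the spiral. They lie head to head in the rat genome. In the RefSeq annotation of GRCr8, Hadhb starts at base 31907557 of chromosome 6 and runs along the minus strand, and Hadha starts at base 31907801 on the plus strand. The stretch between them, chr6:31907558-31907800 on the plus strand, is 243 bases long and is shown because it is the shared upstream region of the pair. CG pairs are in capitals.

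Hadha and Hadhb intergenic stretch: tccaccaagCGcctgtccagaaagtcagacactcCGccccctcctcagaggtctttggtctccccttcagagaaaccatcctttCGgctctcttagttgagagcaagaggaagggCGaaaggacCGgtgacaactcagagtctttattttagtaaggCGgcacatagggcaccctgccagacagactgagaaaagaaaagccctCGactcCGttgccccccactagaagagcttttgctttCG

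It holds 9 CG pairs and has a GC content of 53.5%. Promoter windows from 250 bases before to 50 after the start, from RefSeq on GRCr8, were found for 27 members. The Hadhb window, bases 31907451 to 31907750, does not match the Hadhb start given above, and the Hadhb hit below is counted in that window. The half-site AGGTCA, which nuclear receptors of the Ppara type bind, was found on either strand in 6 of the 27 (22.2%), in Acadvl, Echs1, Eci1, Eci2, Hadhb and Hsd17b4, and in 16.2% of all 33469 windows. The repeat of that half-site known as DR1, searched as a degenerate match on both strands, was in 0 of the 27 and in 0.415% of all windows.

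Averaged over its 30 genes, the pathway had higher group means in the 3 intervention groups than in IRI or Sham. The mean level was 9.64 ± 0.30 (SD) in IPC+IPO, 9.63 ± 0.14 in IPO, 9.59 ± 0.15 in IPC, 9.37 ± 0.25 in IRI (n = 10 each) and 9.36 ± 0.30 in Sham (n = 8). In Sham the rats ranged from 9.04 to 9.93 with a median of 9.30. The IRI rats ranged from 8.93 to 9.65 with a median of 9.46, and the IPO rats from 9.36 to 9.81 with a median of 9.66. The groups overlapped, and the lowest rats were Sham, IRI and IPC+IPO animals. The Sham mean was the lowest of the 5 groups for 17 members and the IRI mean for 10, while the highest mean was in IPO for 15 and in IPC+IPO for 10. All 3 intervention means were above the IRI mean for 24 members and above the Sham mean for 23. No member separated all rats of a group from all rats of another in any of the 9 pairs of groups examined. Such separation was not counted over all genes, so this count has no background share beside it.

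Array spread moved with these levels. In the 14 arrays of lowest spread the mean over the 30 genes was 8.93 to 9.53 (median 9.30), and in the other 34 arrays 9.08 to 9.95 (median 9.65). Spread is computed from the same arrays and differs between the groups, so a fit with spread as a covariate takes up whatever the groups and the spread have in common. Differences are given below with that covariate where it ends a call.

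**Figure D1:**
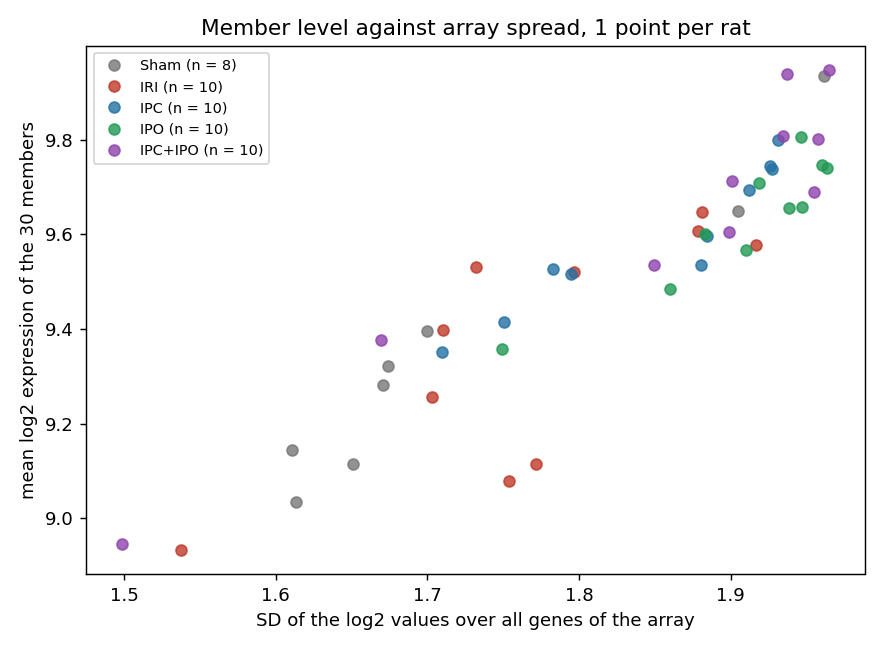
Mean log2 expression of the 30 measured members (y axis) against array spread, the SD over genes on the log2 scale (x axis), 1 point per rat and coloured by group. Arrays of low spread have low member means: the 14 arrays of lowest spread lie between 8.93 and 9.53, and 6 of them are Sham arrays.

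Ischemia and reperfusion alone was compared with Sham to ask what the insult did to the pathway. No member passed the test in limma (0 of 30; 0.241% of all genes were called), and 4 of 30 had an unadjusted p under 0.05 against 11.5% of all genes. The members' median difference was 0.03, beside 0.03 over all genes, with 18 of 30 above 0. The members' median was lower without the 14 arrays of lowest spread, which leaves 2 Sham rats. It was then -0.36 with 0 of 30 members above 0, beside -0.01 over all genes, and 0 members were called. The carnitine acyltransferase gene Crat, which moves short acyl groups between coenzyme A and carnitine, had the smallest p. It ran from 6.21 to 7.60 with a median of 6.94 in IRI and from 6.91 to 7.67 with a median of 7.28 in Sham, a difference of -0.43 ± 0.15 (SE, adjusted p = 0.189). Acsl4, which prefers arachidonic acid, differed by -0.45 ± 0.19 (adjusted p = 0.340), Hadha by -0.37 ± 0.18 (adjusted p = 0.416) and Etfb, the beta subunit of the flavoprotein that takes electrons from the dehydrogenases, by 0.28 ± 0.13 (adjusted p = 0.409). The lowest difference was that of Cpt1a, the malonyl-CoA sensitive entry step of the carnitine shuttle, at -0.53 ± 0.29 (adjusted p = 0.492). With spread as a covariate Crat (-0.49 ± 0.13, adjusted p = 0.0201) and Acsl4 (-0.54 ± 0.16, adjusted p = 0.0394) fell, beside 2.92% of all genes that fell in that fit.

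Postconditioning was compared with IRI alone to ask what the brief interruptions of reperfusion changed. Of the 30 members 9 rose and 0 fell, beside 12.4% of all genes that rose and 10.4% that fell. The members that rose were Hadha, Acsl4, Acadm, Ehhadh, Crat, Eci2, Hsd17b4, Acsl5 and Etfdh, by 0.29 to 0.60 on the log2 scale (adjusted p from 0.0180 to 0.0451). The median over the 30 members was 0.30 with 25 above 0, against a median of -0.04 and 45.9% above 0 over all genes. The members are bright genes, with mean levels between the 72.1 and 99.1 percentiles of all genes. With the dimmest 33.3% of genes left out, the median over the genes kept was 0.14, and 25.3% of them were called in either direction. The contrast with all genes is therefore in part one of bright with dim genes. The genes kept still include genes dimmer than every member, so the contrast with them is not matched for brightness. The 3 peroxisomal members were at 0.43 to 0.49 and 2 of them rose, both members shared by the compartments rose, and 3 of the 20 mitochondrial members rose (Hadha, Acadm and Etfdh, median of the 20 at 0.25).

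These calls rested on IRI animal 7. Without that rat 0 of the 30 members and 2.72% of all genes were called, and the members' median was 0.26. The highest adjusted p of Acadm, Hadha, Crat and Acsl5 over the 20 fits that left out a rat came to 0.0556, 0.0600, 0.0717 and 0.0718, and each of these genes lost its call only without IRI animal 7. The other 5 calls were lost more often: Ehhadh and Etfdh in 12 of the 20 fits (adjusted p up to 0.106 and 0.117), Eci2 in 8, Acsl4 in 6 and Hsd17b4 in 4. The count of members was 4 without IPO animal 23, beside 13.7% of all genes, and 5 without IRI animal 9, IPO animal 22 or IPO animal 27, beside 12.2%, 12.6% and 12.6%. It was 16 without IRI animal 1, beside 36.8% of all genes, and 14 without IRI animal 6 or IPO animal 30, beside 29.9% and 29.3%, so in these 3 fits the share of all genes called was higher as well. With array spread as a covariate 0 members were called and 0.0138% of all genes; 5 members had an unadjusted p under 0.05, and the members' median was 0.05. The 9 members were then at 0.05 to 0.34, with adjusted p from 0.441 to 0.864. Without the 14 arrays of lowest spread, 9 members rose beside 5.77% of all genes, but only Acadm, Eci2 and Etfdh were called in both fits. The other 6 were Slc25a20, Acadvl, Echs1, Hadh, Acaa2 and Acat1, all mitochondrial, and the median stood at 0.30 with 27 of 30 above 0.

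Among the activating enzymes, Acsl4 ran from 7.50 to 9.47 with a median of 8.65 in IRI and from 8.78 to 9.32 with a median of 9.15 in IPO. All IPO rats were above the IRI median, and 6 IRI rats lay below every IPO rat. The difference was 0.54 ± 0.18 (SE, adjusted p = 0.0331), and it was 0.26 ± 0.17 with the covariate. Acsl5, an enzyme of the endoplasmic reticulum and outer mitochondrial membrane, ran from 8.77 to 9.72 (median 9.39) in IRI and from 9.11 to 10.17 (median 9.83) in IPO. Here 6 IPO rats were above every IRI rat. It rose by 0.44 ± 0.13 (adjusted p = 0.0229), and was at 0.21 ± 0.12 with the covariate. Acsl1 and Acsl3 differed by 0.26 ± 0.11 and 0.45 ± 0.19 (adjusted p = 0.0761 and 0.0651).

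In the carnitine shuttle Crat alone rose. Its IPO rats lay between 7.11 and 7.74 with a median of 7.33, all above the IRI median, and 7 IRI rats were below every IPO rat. The rise was 1.38-fold, or 0.47 ± 0.14 (adjusted p = 0.0220), and 0.28 ± 0.13 with the covariate. Cpt2, which remakes acyl-CoA in the matrix, differed by 0.37 ± 0.17 (adjusted p = 0.0893), and Crot, which makes medium-chain acylcarnitines in peroxisomes, by 0.43 ± 0.18 (adjusted p = 0.0689). The acylcarnitine carrier Slc25a20 differed by 0.26 ± 0.16 (adjusted p = 0.192). Cpt1a had the lowest difference of all members, -0.29 ± 0.28 (adjusted p = 0.392).

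Of the acyl-CoA dehydrogenases, which make the first oxidation at different chain lengths, Acadm for medium chains rose. It ran from 10.03 to 11.01 with a median of 10.42 in IRI and from 10.62 to 11.21 with a median of 11.01 in IPO. All IPO rats were above the IRI median and 5 were above every IRI rat. The rise was 1.44-fold, or 0.53 ± 0.15 (adjusted p = 0.0180), and 0.16 ± 0.08 with the covariate. Acadvl for very long chains differed by 0.28 ± 0.14 (adjusted p = 0.109), while Acadl for long chains and Acads for short chains were at -0.07 ± 0.09 and -0.09 ± 0.16 (adjusted p = 0.497 and 0.641).

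Hadha ran from 8.22 to 10.22 with a median of 9.19 in IRI and from 9.37 to 10.08 with a median of 9.94 in IPO. The IRI rats were spread widely: 5 lay below every IPO rat and 1 lay above every IPO rat. The rise was 1.52-fold, or 0.60 ± 0.17 (adjusted p = 0.0181), and 0.34 ± 0.15 with the covariate (adjusted p = 0.441). A second Hadha probe set, 10883303, did not follow the one used, 10883305. It averaged 7.55 ± 0.36 (SD) in IRI and 7.52 ± 0.16 in IPO, a difference of -0.03 ± 0.12 (SE, adjusted p = 0.838), so the Hadha result holds for 1 of its 2 probe sets. In IRI against Sham 10883303 was at 0.11 ± 0.13, where 10883305 was at -0.37 ± 0.18. Against IRI it was at 0.12 ± 0.12 in IPC and 0.17 ± 0.12 in IPC+IPO, where 10883305 was at 0.55 ± 0.17 and 0.62 ± 0.17. Hadhb differed by 0.41 ± 0.16 (adjusted p = 0.0540), the thiolase gene Acaa2 by 0.31 ± 0.13 (adjusted p = 0.0687), the 3-hydroxyacyl-CoA dehydrogenase gene Hadh by 0.25 ± 0.12 (adjusted p = 0.101) and the short-chain hydratase gene Echs1 by 0.10 ± 0.12 (adjusted p = 0.511).

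Unsaturated chains need isomerases and a reductase. The isomerase gene Eci2 ran from 9.24 to 10.02 (median 9.55) in IRI and from 9.15 to 10.32 (median 10.20) in IPO. Of the IPO rats 9 were above every IRI rat and 1, animal 30, was below every IRI rat. It rose by 0.46 ± 0.15 (adjusted p = 0.0323), and was at 0.08 ± 0.09 with the covariate. The other isomerase gene Eci1 and the reductase gene Decr1 were at -0.03 ± 0.18 and 0.10 ± 0.18 (adjusted p = 0.914 and 0.647). Among the electron carriers, Etfdh, which passes electrons to ubiquinone, ran from 9.15 to 9.81 (median 9.58) in IRI and from 9.43 to 9.95 (median 9.84) in IPO, and 5 IPO rats were above every IRI rat. It rose by 0.29 ± 0.11 (adjusted p = 0.0451), and was at 0.05 ± 0.07 with the covariate. The flavoprotein subunit genes Etfa and Etfb were at -0.12 ± 0.15 and 0.22 ± 0.13 (adjusted p = 0.519 and 0.165).

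The ketone body genes did not pass. Bdh1, which interconverts acetoacetate and beta-hydroxybutyrate, differed by 0.31 ± 0.13 (adjusted p = 0.0778) and Acat1, the acetoacetyl-CoA thiolase gene, by 0.18 ± 0.13 (adjusted p = 0.240). The matrix thioesterase gene Acot2, which splits long acyl-CoA, differed by 0.38 ± 0.16 (adjusted p = 0.0639). Ppara itself was at 0.02 ± 0.24 (adjusted p = 0.948), with a 95% interval of -0.46 to 0.51.

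Both bifunctional enzymes of the peroxisomal spiral rose, though Ehhadh lost its call in 12 and Hsd17b4 in 4 of the 20 fits that left out a rat. Ehhadh, the L-specific enzyme, ran from 9.23 to 10.51 (median 9.86) in IRI and from 9.87 to 10.50 (median 10.34) in IPO. All IPO rats were above the IRI median, 5 IRI rats lay below every IPO rat and 1 lay above every one. The rise was 1.40-fold, or 0.49 ± 0.17 (adjusted p = 0.0400). Hsd17b4, the D-specific enzyme, ran from 9.57 to 10.27 (median 9.80) in IRI and from 9.83 to 10.65 (median 10.39) in IPO, and 7 IPO rats were above every IRI rat. It rose by 0.45 ± 0.14 (adjusted p = 0.0277). With the covariate Ehhadh was at 0.30 ± 0.18 and Hsd17b4 at 0.09 ± 0.08, and none of the 3 peroxisomal members passed.

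**Figure D2:**
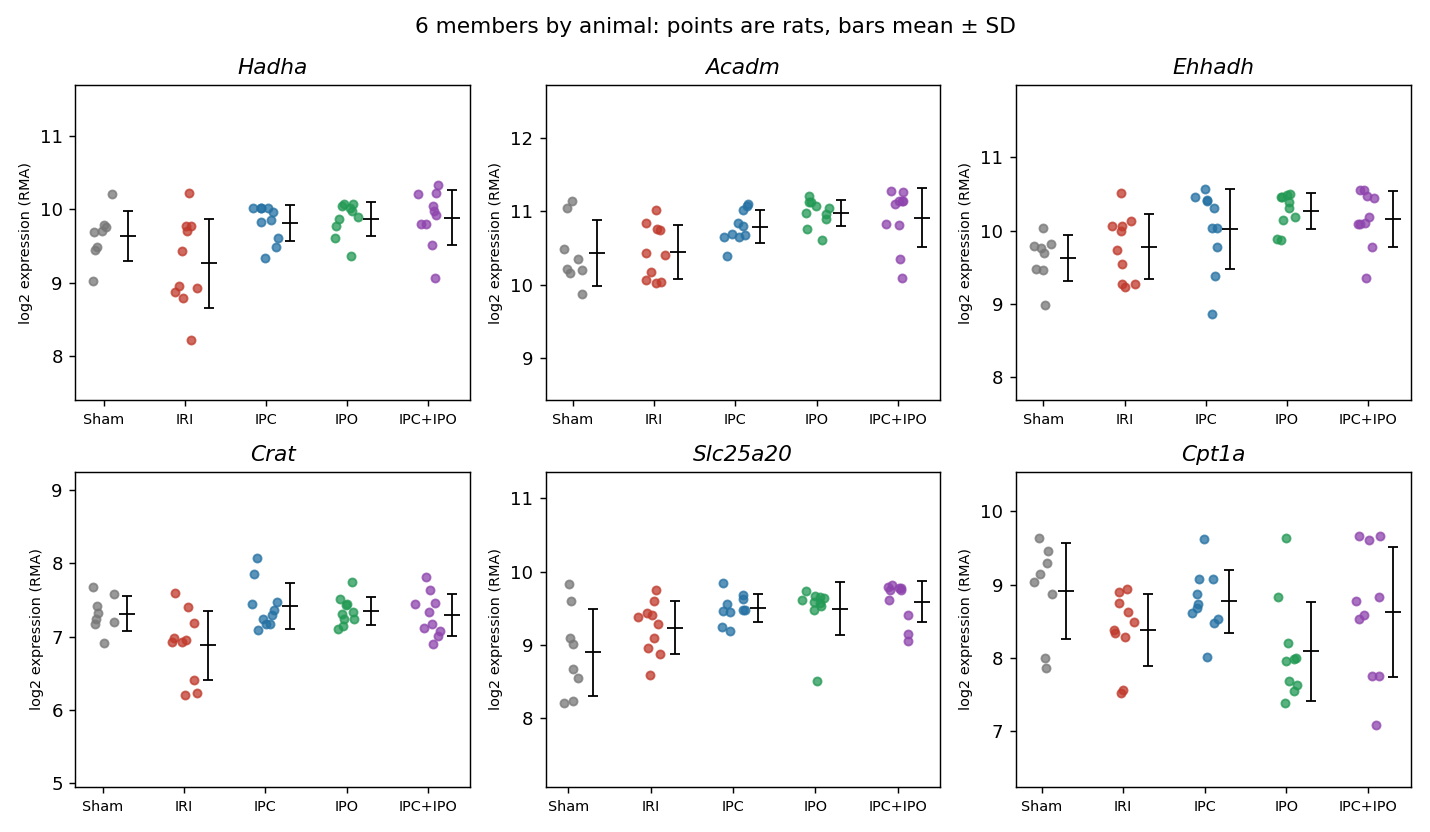
Log2 expression (y axis) of 6 members in every rat, by group; points are rats and the bars beside them are the mean and SD (n = 8 for Sham, 10 for the others). Hadha and Crat reach lowest in IRI, Slc25a20 reaches lowest in Sham, IPO animal 30 lies apart at 8.50 for Slc25a20, and most IPO rats are low for Cpt1a.

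Preconditioning was compared with IRI alone by the same fit. No member passed (0 of 30, beside 0.0276% of all genes), and 8 of 30 had an unadjusted p under 0.05 against 19.3% of all genes. The members' median was 0.24 with 26 above 0. Crat ran from 7.10 to 8.07 with a median of 7.33 in IPC and differed by 0.53 ± 0.14 (adjusted p = 0.154). Hadha ran from 9.34 to 10.02 with a median of 9.91 and differed by 0.55 ± 0.17 (adjusted p = 0.158). Crot and Acot2 differed by 0.52 ± 0.18 and 0.42 ± 0.16 (adjusted p = 0.168 and 0.181), and the lowest difference was that of Etfa at -0.28 ± 0.15 (adjusted p = 0.294). Without IRI animal 1, 2 members were called, beside 1.74% of all genes. With the covariate 0 members and 0% of all genes were called, and the members' median was 0.08.

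The combined interventions gave no call against IRI in limma (0 of 30, beside 0% of all genes). Here 15 of 30 members had an unadjusted p under 0.05, against 21.5% of all genes, and the median was 0.27 with 28 above 0. Hadha ran from 9.07 to 10.33 with a median of 9.96 and differed by 0.62 ± 0.17 (adjusted p = 0.0942). Acadm ran from 10.09 to 11.27 with a median of 11.12 and differed by 0.46 ± 0.15 (adjusted p = 0.107). Acot2 differed by 0.48 ± 0.16 (adjusted p = 0.107), Crat by 0.41 ± 0.14 (adjusted p = 0.114), and the lowest difference was that of Acads at -0.18 ± 0.16 (adjusted p = 0.484). Animal 38 held the lowest value of the group for Hadha and Acadm, and without it 10 members and 11.8% of all genes were called. The count was 2 without IRI animal 1 or IPC+IPO animal 37, beside 5.4% and 2.42% of all genes. Without the 14 arrays of lowest spread 12 members rose, beside 3.4% of all genes, with Acat1 (0.54 ± 0.10, adjusted p = 0.00784) and Slc25a20 (0.53 ± 0.11, adjusted p = 0.0174) at the smallest p. With the covariate 0 members and 0.062% of all genes were called, and the members' median was 0.13. The 3 intervention comparisons share the IRI rats as their reference.

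**Figure D3:**
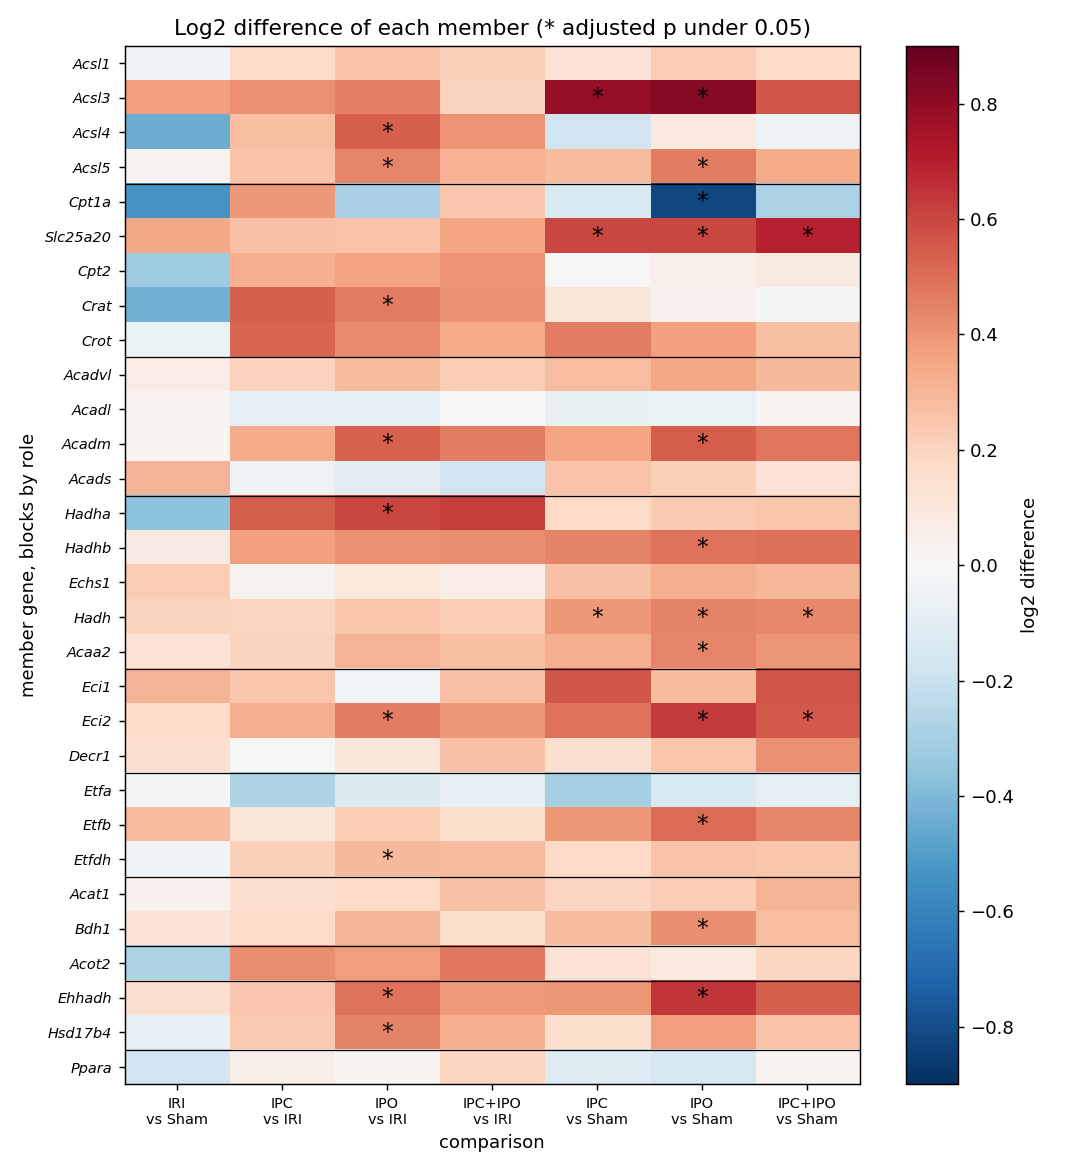
Log2 difference of each of the 30 members (rows, in blocks by role) in 7 comparisons (columns); red is higher and blue lower in the first group named, and an asterisk marks an adjusted p under 0.05. The columns against IRI hold 9 asterisks, all in IPO, and the columns against Sham hold 18, of which the blue one is Cpt1a in IPO.

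Against Sham, the postconditioned livers held the most calls. In IPO 11 members rose and 1 fell, beside 15.4% of all genes that rose and 7.76% that fell. The members' median was 0.30. With the dimmest genes left out as above, the median over the genes kept was 0.18, and 30.9% of them were called in either direction. The contrast with all genes is therefore in part one of bright with dim genes here too. Acsl3, a synthetase of the endoplasmic reticulum and lipid droplets, ran from 5.47 to 7.15 (median 6.49) in Sham and from 6.63 to 7.89 (median 7.29) in IPO. All IPO rats were above the Sham median and 6 were above every Sham rat. It rose 1.76-fold, or 0.82 ± 0.20 (SE, adjusted p = 0.00629). Ehhadh ran from 8.99 to 10.03 (median 9.73) in Sham, and 8 IPO rats were above every Sham rat. It rose by 0.64 ± 0.18 (adjusted p = 0.0144). Eci2 rose by 0.63 ± 0.16 (adjusted p = 0.00875), with 7 IPO rats above every Sham rat, and Etfb by 0.51 ± 0.13 (adjusted p = 0.00991). With the covariate Acsl3 was at 0.32 ± 0.16, Ehhadh at 0.39 ± 0.19, Eci2 at 0.12 ± 0.10 and Etfb at 0.18 ± 0.11, and none passed.

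The remaining members that rose in IPO over Sham did so by 0.42 to 0.60. Slc25a20 ran from 8.21 to 9.83 (median 8.84) in Sham and from 8.50 to 9.74 (median 9.60) in IPO, and rose by 0.60 ± 0.17 (adjusted p = 0.0135). Of the IPO rats 9 were above the Sham median, and animal 30 was below it. Acadm rose by 0.55 ± 0.16 (adjusted p = 0.0137), Hadhb by 0.49 ± 0.17 (adjusted p = 0.0342), Acsl5 by 0.46 ± 0.14 (adjusted p = 0.0185), Hadh by 0.45 ± 0.13 (adjusted p = 0.0130), Acaa2 by 0.44 ± 0.14 (adjusted p = 0.0220) and Bdh1 by 0.42 ± 0.14 (adjusted p = 0.0305). With the covariate none of these 7 passed: Slc25a20, Acsl5, Hadh and Acaa2 were at 0.15 to 0.18, Acadm at 0.06 ± 0.09, Bdh1 at 0.0042 ± 0.09 and Hadhb at -0.0044 ± 0.12. Over the 18 fits that left out a rat, Hadhb lost its call in 9, Bdh1 in 7 and Acaa2 in 2.

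Cpt1a, the gene of the step that commits long acyl chains to the mitochondrion, was the member that fell. It ran from 7.86 to 9.64 (median 9.09) in Sham and from 7.39 to 9.64 (median 7.98) in IPO. Of the IPO rats 9 were below the Sham median and 4 below every Sham rat, while animal 30 was at the top of the group. The level fell by 0.82 ± 0.29 on the log2 scale (adjusted p = 0.0371). From low to high, its group means were 8.09 ± 0.68 (SD) in IPO, 8.38 ± 0.50 in IRI, 8.63 ± 0.88 in IPC+IPO, 8.77 ± 0.43 in IPC and 8.91 ± 0.65 in Sham. Neighbours in this order overlapped and lay within 1 SD of each other. IPO against IPC gave -0.68 ± 0.28 (adjusted p = 0.835), a 95% interval of -1.24 to -0.13 before adjustment. The Cpt1a fall from Sham was -1.09 ± 0.32 with the covariate (adjusted p = 0.210) and -0.83 ± 0.42 without the 14 arrays of lowest spread, and neither fit called it. Over the 18 fits that left out a rat it stayed between -0.99 and -0.72 and lost its call in 13.

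Fewer calls were made in the other comparisons with Sham. In IPC 3 members rose and 0 fell, beside 5.6% of all genes that rose and 0.986% that fell: Acsl3 by 0.78 ± 0.20 (adjusted p = 0.0161), Slc25a20 by 0.60 ± 0.17 (adjusted p = 0.0278) and Hadh by 0.39 ± 0.13 (adjusted p = 0.0485). Acsl3 ran from 6.88 to 7.43 (median 7.21) in IPC, and 7 of these rats were above every Sham rat. In IPC+IPO 3 members rose and 0 fell, beside 3.05% of all genes that rose and 0.565% that fell: Slc25a20 by 0.69 ± 0.17 (adjusted p = 0.0220), Eci2 by 0.55 ± 0.16 (adjusted p = 0.0442) and Hadh by 0.43 ± 0.13 (adjusted p = 0.0420). Slc25a20 ran from 9.06 to 9.82 (median 9.76) in IPC+IPO, and all 10 rats were above the Sham median. Slc25a20 and Hadh were called against Sham in each intervention group, and those 3 comparisons share the Sham rats. Over the 18 fits that left out a rat, Hadh lost its call in 14 in IPC and 13 in IPC+IPO, Slc25a20 in 5 and 4, Acsl3 in 2 in IPC and Eci2 in 14 in IPC+IPO. With the covariate Acsl3, Slc25a20 and Hadh were at 0.44 ± 0.15, 0.32 ± 0.13 and 0.19 ± 0.10 in IPC, and Slc25a20, Eci2 and Hadh at 0.39 ± 0.13, 0.19 ± 0.09 and 0.22 ± 0.10 in IPC+IPO, and none passed. The signs of Slc25a20 and Hadh turned without the 14 arrays of lowest spread in IPC (Slc25a20 -0.21 ± 0.16, Hadh -0.11 ± 0.15) and in IPO (-0.11 ± 0.16 and -0.02 ± 0.15), and in IPC+IPO they were at 0.000875 ± 0.16 and 0.08 ± 0.15.

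Levels in the Sham group followed array spread. In the 6 Sham rats of low spread the mean over the 30 members was 9.04 to 9.40, and in the other 2 Sham rats 9.65 to 9.93. With spread as a covariate 0 members were called against Sham in IPC, IPO and IPC+IPO, beside 1.9%, 0% and 0.234% of all genes, and the members' medians were 0.01, -0.03 and 0.02. Without the 14 arrays of lowest spread, which leaves 2 Sham rats, 0 members were called in these comparisons, beside 0.0483%, 0% and 0% of all genes, with medians of -0.19, -0.08 and -0.04. In IPC the count was 0 without Sham animal 41, 1 without Sham animals 42, 45, 46 or 47 or IPC animal 16, and 8 or 9 without Sham animals 48 or 43, while 2.02% of all genes were called without animal 41 and 13.2% or 16.5% without 48 or 43. In IPC+IPO it was 0 without Sham animals 41, 42, 46 or 47 and 1 without Sham animals 44 or 45 or any of IPC+IPO animals 31, 32, 33, 35, 36, 39 and 40. It was 10, 15, 11 and 12 without IPC+IPO animals 37 or 38 or Sham animals 48 or 43, beside 12.6%, 16.2%, 12.3% and 16.8% of all genes, and 0.338% to 0.558% were called in the 4 fits with 0 members.

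**Figure D4:**
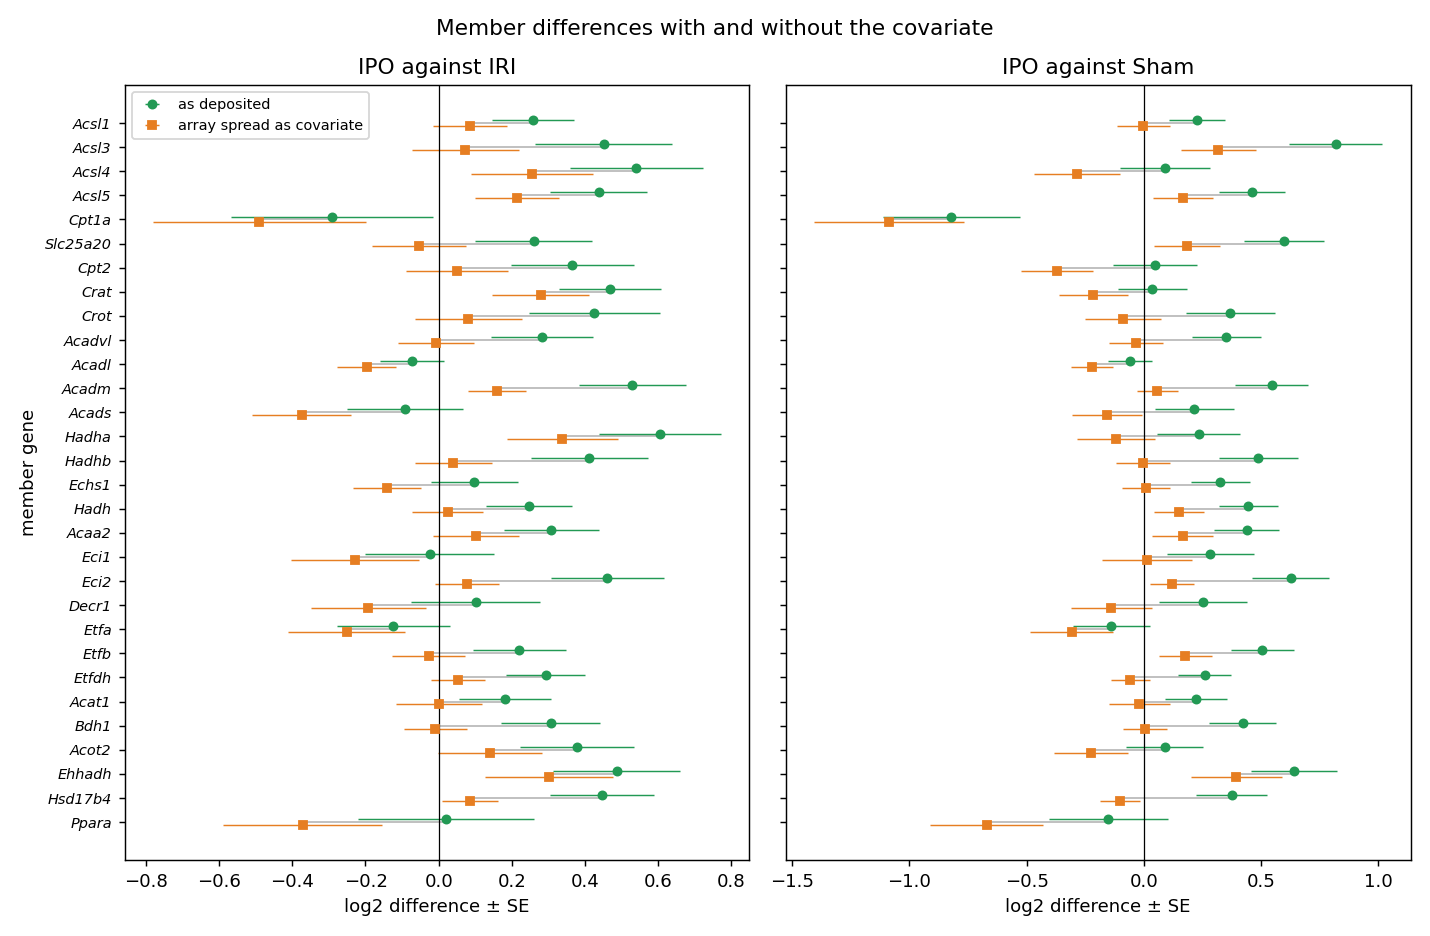
Log2 difference and its standard error (x axis) of the 30 members (y axis) for IPO against IRI (left) and IPO against Sham (right), from the deposited values (green circles) and with array spread as a covariate (orange squares). The member median moves from 0.30 to 0.05 on the left and from 0.30 to -0.03 on the right, and Cpt1a stays lowest in both panels.

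No member passed between the intervention groups. IPO against IPC, IPC+IPO against IPC and IPC+IPO against IPO called 0 members and 0% of all genes in limma, with 1, 0 and 0 members at an unadjusted p under 0.05 against 4.06%, 1.62% and 3.32% of all genes, and member medians of 0.06, 0.07 and -0.03. The interaction of both interventions called 0 members and 0% of all genes, with 5 of 30 members at an unadjusted p under 0.05 against 20.3% of all genes. The members' median was -0.25 with 24 of 30 below 0, beside 0.03 over all genes and -0.13 with the dimmest 33.3% of genes left out. With the covariate the members' median was -0.0012 with 15 of 30 below 0. Crat had its smallest p, at -0.59 ± 0.20 (adjusted p = 0.205). The 95% interval of the Crat interaction was -0.99 to -0.19 before adjustment.

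Other genes of the pathway were read from lists, whose counts in IPO against IRI stand beside 12.4% of all genes that rose and 10.4% that fell. With the covariate 0 genes of these 4 lists passed. Without IRI animal 7, Angptl4 and Plin2 rose and Esrra fell among the Ppara partners and targets, and 0 genes of the other 3 lists passed. Of 28 measured genes among 37 other oxidation and ketogenesis genes, 3 rose and 2 fell in IPO against IRI, shares near those of all genes, with a median of 0.16 (-0.05 with the covariate). The peroxisomal acyl-CoA transporter gene Abcd3 rose by 0.55 ± 0.16 (adjusted p = 0.0202), the branched-chain dehydrogenase gene Acadsb by 0.36 ± 0.11 (adjusted p = 0.0272) and the sterol carrier and thiolase gene Scp2 by 0.29 ± 0.10 (adjusted p = 0.0410). Acsl6 fell by 0.34 ± 0.10 (adjusted p = 0.0225) and Oxct1, the enzyme of ketone body use outside the liver, by 0.28 ± 0.09 (adjusted p = 0.0333). Of 10 genes of uptake and binding 1 rose, the peroxisomal acyl-CoA binding gene Acbd5 (0.62 ± 0.19, adjusted p = 0.0239), and 1 fell, Fabp2 (-0.77 ± 0.26, adjusted p = 0.0343).

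Among the partners and targets of Ppara, 6 of 20 measured genes rose and 1 fell in IPO against IRI, beside the 12.4% and 10.4% of all genes, with a median of 0.39 (0.06 with the covariate). Angptl4, an inhibitor of lipoprotein lipase, rose 2.43-fold (1.28 ± 0.29, adjusted p = 0.0112), the lipid droplet coat gene Plin2 2.11-fold (1.08 ± 0.25, adjusted p = 0.0114) and Pdk4, which brakes pyruvate oxidation, 2.02-fold (1.02 ± 0.33, adjusted p = 0.0298). Txnip, the fatty acid hydroxylase gene Cyp4a3 and the corepressor gene Ncor1 rose by 0.71 ± 0.22, 0.47 ± 0.14 and 0.61 ± 0.21 (adjusted p = 0.0244, 0.0195 and 0.0360), and Esrra fell by 0.29 ± 0.08 (adjusted p = 0.0188). On the malonyl-CoA axis, which sets the inhibition of Cpt1a, 2 of 8 genes rose, the AMP-activated kinase subunit genes Prkaa1 (0.45 ± 0.13, adjusted p = 0.0200) and Prkab1 (0.57 ± 0.20, adjusted p = 0.0370), with a median of 0.40.

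In the other 3 main comparisons 0 genes of these 4 lists passed in limma. Against IRI, Plin2 and Pdk4 had the smallest p of the Ppara list in IPC, at 1.18 ± 0.25 and 1.32 ± 0.33 (adjusted p = 0.0556 and 0.130), and Angptl4 and Cyp4a1 in IPC+IPO, at 1.03 ± 0.29 and 0.58 ± 0.17 (adjusted p = 0.0942 and 0.0950). Abcd3 was at 0.43 ± 0.16 and 0.50 ± 0.16 in those comparisons (adjusted p = 0.180 and 0.107), Acsl6 at -0.27 ± 0.10 in IPC (adjusted p = 0.193) and Acadsb at 0.38 ± 0.11 in IPC+IPO (adjusted p = 0.100). Prkaa1 was at 0.38 ± 0.13 and 0.41 ± 0.13 (adjusted p = 0.168 and 0.106) and Mlycd, malonyl-CoA decarboxylase, at 0.32 ± 0.14 and 0.26 ± 0.14 (adjusted p = 0.225 and 0.269). Of the uptake genes, Fabp4 was at 0.55 ± 0.28 and Fabp2 at -0.43 ± 0.26 in IPC (adjusted p = 0.261 and 0.339), and Fabp2 at -0.76 ± 0.26 and Acbd5 at 0.54 ± 0.19 in IPC+IPO (adjusted p = 0.120 and 0.121). In IRI against Sham the smallest p of each list belonged to Hsd17b10 (0.48 ± 0.14, adjusted p = 0.106) and Pecr (0.41 ± 0.14, adjusted p = 0.173), Acbd5 (-0.54 ± 0.20, adjusted p = 0.240) and Fabp2 (0.70 ± 0.28, adjusted p = 0.284), Rxrb (0.19 ± 0.08, adjusted p = 0.305) and Esrra (0.21 ± 0.09, adjusted p = 0.321), and Acacb (0.48 ± 0.22, adjusted p = 0.382) and Prkag1 (0.36 ± 0.19, adjusted p = 0.468).

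Marker genes of liver cell types moved beside the members in IPO against IRI, where 12.4% of all genes rose and 10.4% fell. With the covariate 0 markers of these lists passed in this comparison, and without IRI animal 7 Ass1 alone did. Of 10 hepatocyte markers 4 rose (Ass1, Tat, Tf and Hpx, by 0.25 to 0.70) and Apoa1 fell by 0.21 ± 0.08; their mean level ran from 11.99 to 12.44 in IRI and from 12.32 to 12.55 in IPO. Of 10 Kupffer cell markers Cd5l and Cd68 rose, with a mean level of 6.95 to 8.23 in IRI and 7.15 to 8.57 in IPO. Of 12 stellate cell markers Pdgfrb and Acta2 rose, and their mean level ran from 6.26 to 6.98 in IRI and from 6.48 to 7.08 in IPO. Of 10 neutrophil markers Ngp and Itgam fell, with means of 4.75 to 5.23 and 4.59 to 5.23. Hbb of 7 erythroid and platelet markers and Plin1 of 6 adipocyte markers fell, and 0 of 5 sinusoidal endothelial, 5 cholangiocyte and 6 muscle markers passed. In IRI against Sham the stellate cell marker Pdgfra fell, alone of these lists. No marker stood at 0 on this log2 scale, which does not show that its cell type was present. The neutrophil means above lay below the array medians, which ran from 5.78 to 5.92. The part of cell composition in the members' differences was not tested, and in a biopsy fewer cells of a type and less RNA per cell cannot be told apart.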

How the data were processed

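The deposited log2 expression values were made by the authors with RMA in Affymetrix Expression Console, per the submitters' processing notes; version, filters, genome build and hybridization batches are not given in the sources used here. RMA sets arrays to a common probe distribution, so differences are relative to the array. Of 29215 probe sets, 15310 carry 1 symbol, 323 several and 13582 none here; per gene the probe set of highest mean was used (14506 genes).

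Groups came from the sample titles; the labels name 48 separate animals. The 10 pairwise comparisons and the interaction were tested with limma 3.58.1 in R 4.3.3 (1 fit of 5 groups, 43 residual degrees of freedom, two-sided), with Benjamini-Hochberg adjustment over all genes and a threshold of 0.05. The number of arrays limits the precision. The fit was tested on simulated data. Figures used matplotlib 3.10.9.

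The members and gene lists were chosen with earlier results of these data known. Named genes were members past the threshold in any comparison, the 4 members of smallest p and the lowest difference in each main comparison (IRI against Sham and each intervention against IRI), and from each list those past the threshold in IPO against IRI (up to 6) and the 2 of smallest p in other main comparisons; further members were named to account for all 30. Ncor1 was named as the seventh call of its list, outside this rule, after its values were seen. The marker lists are summarised by counts. Alternatives covered variance model, array weights, dim genes, probe set choice, centring, quantile normalization, spread as covariate, arrays left out and groups fitted. All probe sets in the fit was added after the data were seen.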

Additional observations from a re-analysis of the deposited data

Results flagged for a closer look

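Dixon's ratio was applied to the highest and lowest rat of each of the 30 members in each of the 5 groups, 150 tests in all, and 14 lowest values stood apart from their group. Chance marks about 1 in 20, or 7.5 of 150, and values of 1 array are not independent.

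IPO animal 30 gave 7 of the 14. It stood lowest of its group at 8.50 for the acylcarnitine carrier gene Slc25a20 (next rat 9.47), 7.69 for Acads (8.40), 10.2 for Echs1 (10.87), 9.15 for Eci2 (10.04), 10.05 for Etfa (10.40), 10.03 for Etfb (10.38) and 9.43 for Etfdh (9.68). Its array has the lowest spread of the IPO group, 1.75, and the same rat was the highest of the group for Cpt1a, at 9.64.

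IPC+IPO animal 38 gave 4, at 8.72 for Acadvl (next rat 9.76), 7.23 for Acads (8.40), 9.89 for Echs1 (10.70) and 9.12 for Hsd17b4 (9.91). IRI animal 7 gave 2, at 5.66 for Acot2 (6.44) and 6.09 for Ppara (7.03), and IPC animal 12 gave 1, at 8.97 for Etfdh (9.62). These arrays, with spreads of 1.498, 1.54 and 1.71, are among the 14 of lowest spread.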

How the results depend on the processing

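No paired analysis was possible because each rat carries a number of its own and no number recurs in a second group. Members called are given in the order IRI against Sham, IPO against IRI, IPC+IPO against IRI, IPC against Sham, IPO against Sham and IPC+IPO against Sham. Array weights called 5, 21, 20, 19, 23 and 22 members, and 1 each in IPC against IRI and IPO against IPC; of all genes they called 13.1%, 42%, 30.9%, 48.6%, 67.2% and 62.1%, and 3.92% and 0.565% in the last 2. Renewed quantile normalization called 2, 5, 1, 3, 3 and 1, beside 2.63%, 8.89%, 0.779%, 4.62%, 9.07% and 2.24% of all genes. Spread as a covariate called 2, 0, 0, 0, 0 and 0, beside 5.89%, 0.0138%, 0.062%, 1.9%, 0% and 0.234%. Without the 14 arrays of lowest spread 12 members were called in IPC+IPO against IRI, beside 4.14% of all genes. In that fit 0 were called against Sham in IPC, IPO and IPC+IPO, beside 0.0483%, 0% and 0%. Leaving out dim genes gave 5 in IPC and 6 in IPC+IPO against Sham, beside 10.9% and 8.03% of the genes kept. Fitting only the groups compared gave 0 in IPC+IPO against Sham, beside 0.0827% of all genes. The median difference moved to -0.357 in IRI against Sham without the 14 arrays and to 0.0452 in IPO against IRI and -0.00117 in the interaction with the covariate. For IPC, IPO and IPC+IPO against Sham it moved to -0.0476, -0.0345 and -0.0167 with quantile normalization and to -0.194, -0.0838 and -0.0369 without the 14 arrays, and with the covariate to 0.00683 in IPC and -0.0258 in IPO. Without the 14 arrays the signs turned against Sham for Slc25a20 (-0.209 in IPC, -0.105 in IPO), Hadh (-0.106 in IPC, -0.0172 in IPO), Acadm (-0.0788), Hadhb (-0.103) and Etfb (-0.067) in IPO; with the covariate Hadhb was at -0.00444, and the second Hadha probe set gave -0.0324 in IPO against IRI. The cause of these shifts was not tested. Leaving out 1 rat at a time gave 0 to 16 called members in IPO against IRI, 0 to 10 in IPC+IPO against IRI, 0 to 2 in IPC against IRI, 0 to 9, 8 to 16 and 0 to 15 in IPC, IPO and IPC+IPO against Sham, and 0 to 0 in IRI against Sham, IPO against IPC, IPC+IPO against IPC, IPC+IPO against IPO and the interaction. The medians then ran from -0.002565 to 0.11 in IRI against Sham, 0.19 to 0.27 in IPC, 0.26 to 0.34 in IPO and 0.23 to 0.35 in IPC+IPO against IRI, 0.20 to 0.32, 0.25 to 0.39 and 0.25 to 0.38 against Sham, 0.04 to 0.11 in IPO against IPC, 0.03 to 0.15 in IPC+IPO against IPC, -0.07 to 0.05 in IPC+IPO against IPO and -0.29 to -0.16 in the interaction. The counts against Sham were lowest without Sham animal 41 in IPC, 42 or 46 in IPO and 41, 42, 46 or 47 in IPC+IPO, and highest without Sham 43 in IPC, Sham 43 or 48 or IPO 30 in IPO and IPC+IPO 38 in IPC+IPO. In IPO against Sham 14% and 12.3% of all genes were called without Sham 42 or 46. The share was 38.4%, 32.3% and 29.9% without Sham 43, Sham 48 or IPO 30.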
